A study of Mus musculus with 14 samples.

Results

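Polyamine and pyrimidine synthesis was described through 10 genes: Odc1, Srm, Sms, Amd1, Oaz1, Azin1 and Sat1 for polyamines, and Cad, Dhodh and Umps for pyrimidines. They were taken by symbol, through their Entrez identifiers, from the 26270 identified genes of each count file, and all 10 passed the filter on low counts. In the RefSeq annotation of GRCm38.p6, Srm lies at chr4:148591513-148594619, Cad at chr5:31054620-31078479, Odc1 at chr12:17544808-17551502 and Sat1 at chrX:155213126-155216449. The data are RNA-seq counts from 14 libraries of mouse embryonic fibroblasts (MEFs), primary connective tissue cells isolated from E13.5 embryos. The KO cells were labelled Tip60-/- and the control cells Tip60+/+, and the labels give 250 nM 4-hydroxytamoxifen (4-OHT), the agent that induced the deletion, for 3 or 5 days in all libraries. All cells were grown in 3% O2. The groups were KO at day 3 (n = 3), control at day 3 (n = 3), KO at day 5 (n = 4) and control at day 5 (n = 4). Tip60 is the lysine acetyltransferase encoded by Kat5. The labels name neither the recombinase nor its promoter and give one treatment text for both genotypes.

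Polyamines (putrescine, spermidine and spermine) are small cations that bind RNA and DNA and are needed for growth. Ornithine decarboxylase makes putrescine, the synthases add aminopropyl groups taken from decarboxylated S-adenosylmethionine, and antizyme binds ornithine decarboxylase and sends it to the proteasome. Pyrimidine rings are built by the multifunctional protein CAD, oxidised by the mitochondrial enzyme DHODH and turned into UMP by UMPS. Odc1, Srm and Cad are textbook targets of the transcription factor Myc in growing cells.

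Total counts ranged from 2187168 to 39203154 per library, with KO day 3 replicate 3 the shallowest, and a member had 11 to 7890 counts in a library. Kat5 was at 17.3 to 21.1 CPM (counts scaled to library size and corrected for composition) in the 7 KO libraries and at 29.8 to 32.3 CPM in the 7 control libraries. Embryos of the breeding numbers 136, 153 and 159 gave the KO libraries and those of 218 and 219 the control libraries, so breeding and genotype cannot be told apart. Males gave 5 of 7 KO and 1 of 7 control libraries. One embryo label, 218-e1, is on replicates 1 and 2 of the control at day 3, and 5 embryos gave libraries at more than 1 day, so the p-values measure the spread between these libraries. All 12 fibroblast markers were tested. At day 3 their sum was 46719 to 57208 CPM in KO and 34217 to 38960.0 CPM in control, without overlap (5 called higher and 1 lower), and at day 5 it was 32152 to 37394 CPM in KO and 34188 to 49453 CPM in control (3 higher and 5 lower). The 10 cartilage markers summed to 1852 to 3840 CPM in KO libraries, against 83.6 to 364 CPM in 6 control libraries and 2615 CPM in control day 5 replicate 4, which is male and the single library of breeding number 219. Of 9 tested cartilage markers, 7 were called higher and 0 lower at day 3, and 6 higher and 0 lower at day 5. Other marker sums were also apart: macrophage at day 3 (50.2 to 73.3 CPM in KO, 77.9 to 108 CPM in control), neural at day 3 (314 to 422 CPM in KO, 158 to 251 CPM in control) and skeletal muscle at day 5 (184 to 282 CPM in KO, 348 to 422 CPM in control). The endothelial sum was higher in KO at both days, at 16 to 17.9 CPM against 11.6 to 15.8 CPM in control at day 3 and 14.6 to 18.2 CPM against 5.7 to 8.87 CPM in control at day 5. Not all markers behind these sums were called. At day 3, 4 of 7 tested macrophage markers were lower, and 2 of 5 neural and 1 of 4 endothelial markers were higher. At day 5, 1 of 3 tested skeletal muscle markers was lower and 2 of 4 endothelial markers were higher. Skeletal muscle markers went the other way at day 3, where 2 of 3 were higher while the sums overlapped (234 to 433 CPM in KO, 216 to 437 CPM in control). Of the 7 macrophage markers, 1 was higher and 1 lower at day 5. Of all tested genes, 24.6% were higher and 26.2% lower at day 3, and 26.3% and 26.2% at day 5. Erythroid and liver markers were at or near 0. The part of these markers in the differences between KO and control was not tested. In a bulk sample, fewer cells of a type and less RNA per cell cannot be told apart.

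At day 3, Srm, Cad and Sat1 were lower in KO cells and Oaz1 and Azin1 were higher, so 5 of 10 members passed an adjusted p of 0.05 (quasi-likelihood test of edgeR, adjusted by Benjamini-Hochberg over 14327 genes). The same share of all tested genes was 50.9%, with 24.6% higher and 26.2% lower. At day 5, Srm, Cad, Sat1 and Amd1 were lower and Oaz1 was higher, again 5 of 10, against 52.5% of all tested genes (26.3% higher and 26.2% lower). KO and control libraries did not overlap for 6 members at day 3 (1 higher and 5 lower), against 57.8% of all tested genes (28.2% higher and 29.6% lower). The same held for 6 members at day 5 (2 higher and 4 lower), against 47.4% (23.5% higher and 23.8% lower). The median log2 fold change of the members was -0.14 at day 3 and -0.23 at day 5, against -0.0036 and 0.0211 over all tested genes. The count of members called was therefore near the background at both days, and what follows describes single genes.

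**Figure D1:**
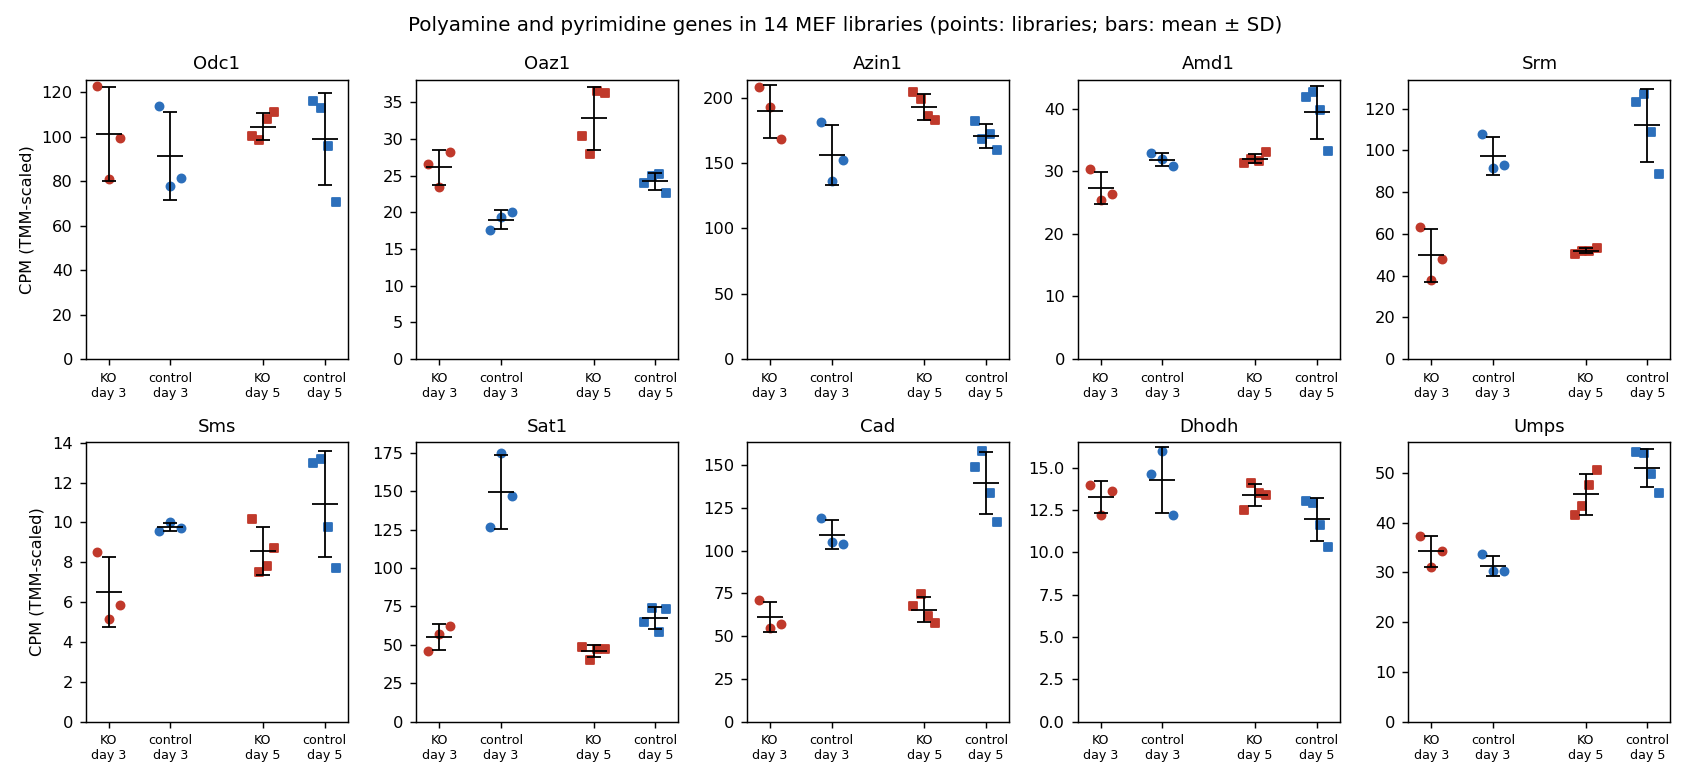
Level of each of the 10 genes in every library, in CPM on composition-corrected library sizes, with KO left of control at each day; points are libraries and black bars the mean ± SD (n = 3 per group at day 3, 4 at day 5). Srm and Cad libraries of KO and control form separate bands at both days, Odc1 libraries overlap, and Sat1 is highest in the day 3 controls.

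Odc1 encodes ornithine decarboxylase, the first and rate-limiting enzyme of polyamine synthesis. Odc1 stood at 123, 80.8 and 99.6 CPM in KO at day 3 (replicates 2 to 4), against 114, 78 and 81.5 CPM in control (replicates 1 to 3). At day 5 it stood at 100.2, 98.7, 108 and 111 CPM in KO, against 116, 113, 96 and 70.7 CPM in control. The groups overlapped at both days, and the lowest library of all was control day 5 replicate 4. No change was called, with a log2 fold change of 0.17 ± 0.195 (SE) at day 3 (adjusted p = 0.48) and 0.08 ± 0.165 at day 5 (adjusted p = 0.726). The intervals of 2 SE around them ran from -0.22 to 0.56 and from -0.26 to 0.41. A fall of Odc1 as large as those of Srm and Cad lies outside both. With sex as a covariate the Odc1 values were 0.36 ± 0.191 at day 3 and 0.26 ± 0.167 at day 5 (adjusted p = 0.138 and 0.226), so a rise is less closely bounded.

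Oaz1 and Azin1 encode the regulators of that enzyme: antizyme 1, which inhibits it and directs its degradation, and antizyme inhibitor 1, an inactive relative of ornithine decarboxylase that binds antizyme in its place. The level of antizyme protein is set largely by a ribosomal frameshift that polyamines promote at a stop codon inside the coding sequence. Because that site lies in a stretch which Oaz1 shares with a copy elsewhere in the genome, it is shown here for Oaz1 (chromosome 10), for the copy Oaz1-ps (chromosome 17) and for the related antizyme gene Oaz2 (chromosome 9). The letters come from GENCODE M21 transcripts on GRCm38, and capitals mark the frameshift codons with the TGA stop.
Oaz1: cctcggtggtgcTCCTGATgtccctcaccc
Oaz1-ps: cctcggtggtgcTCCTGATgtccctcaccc
Oaz2: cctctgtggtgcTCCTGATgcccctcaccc
In these 30 bases Oaz1-ps had 0 mismatches to Oaz1 and Oaz2 had 2. Over 685 aligned bases Oaz1-ps was 99.3% identical to Oaz1, and its row in the files held 6.68 times as many counts as that of Oaz1. Reads of the pair can be split between both rows, so the Oaz1 level is uncertain and the sum is given beside it.

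The Oaz1 row stood at 26.6, 23.5 and 28.3 CPM in KO at day 3, against 17.6, 19.4 and 20.1 CPM in control. Day 5 levels were 30.4, 28, 36.6 and 36.3 CPM in KO, against 24, 25, 25.3 and 22.6 CPM in control. Every KO library lay above every control library of its day. Oaz1 was higher by 0.48 ± 0.116 on the log2 scale at day 3 (adjusted p = 0.00344) and by 0.44 ± 0.0949 at day 5 (adjusted p = 0.00142). Summed with Oaz1-ps, the values were 208, 213 and 234 CPM in KO, against 139.6, 149 and 134 CPM in control at day 3. The summed difference was 0.63 ± 0.0819 at day 3 (adjusted p = 2.76e-05) and 0.31 ± 0.0699 at day 5 (adjusted p = 0.00196), and the groups again did not overlap at either day. The row alone and the sum thus differed in the same direction. Most counts of the sum come from the Oaz1-ps row, so the sum does not fix the direction of Oaz1 transcripts by themselves.

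Azin1 stood at 208, 193 and 168 CPM in KO at day 3, against 181, 136 and 152 CPM in control. The day 5 values were 204, 199, 186 and 183 CPM in KO, against 182, 168, 172 and 160.0 CPM in control. The groups overlapped at day 3 and were narrowly apart at day 5. An antisense transcript overlaps Azin1 (as one does Umps), and the strand setting of the counting is not known, so its reads cannot be told apart. The difference was 0.28 ± 0.104 at day 3 (adjusted p = 0.0349) and 0.18 ± 0.0894 at day 5 (adjusted p = 0.109). The day 3 call was lost when KO replicate 2 (adjusted p = 0.149), KO replicate 3 (0.0769), control replicate 2 (0.163) or control replicate 3 (0.0978) was left out. At day 5 Azin1 was called with sex as a covariate (0.24, adjusted p = 0.0427) and in a fit of the day 5 libraries alone (0.18, adjusted p = 0.0331).

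Amd1 encodes S-adenosylmethionine decarboxylase, which makes the aminopropyl donor. Amd1 averaged 27.3 ± 2.6 CPM in KO and 31.9 ± 1.04 CPM in control at day 3 (SD, n = 3 each), and 32 ± 0.724 CPM in KO and 39.4 ± 4.26 CPM in control at day 5 (n = 4 each). The KO libraries lay below the control libraries at both days, at day 5 by as little as 33.1 against 33.3 CPM. The difference was -0.20 ± 0.1 at day 3 (adjusted p = 0.111) and -0.30 ± 0.0821 at day 5 (adjusted p = 0.007). Amd2, a coding copy with 99.6% identity over 3202 bases, held 0.268 times the counts of Amd1. Without KO replicate 2 the Amd1 row was called at day 3 (-0.29, adjusted p = 0.0457). The sum of both differed by -0.14 at day 3 (adjusted p = 0.329) and by -0.29 at day 5 (adjusted p = 0.00687).

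Srm encodes spermidine synthase, which turns putrescine into spermidine. Srm stood at 63.3, 38 and 47.8 CPM in KO at day 3, against 108, 91.4 and 93.1 CPM in control. The day 5 values were 50.4, 51.9, 51.8 and 53.3 CPM in KO, against 123, 127, 109 and 88.7 CPM in control. KO cells held 51% of the control mean at day 3 and 46.3% at day 5, with no overlap of the groups. The log2 fold change of Srm was -0.92 ± 0.155 at day 3 (adjusted p = 0.000252) and -1.11 ± 0.131 at day 5 (adjusted p = 1.18e-05).

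Sms, on the X chromosome, encodes spermine synthase. Sms stood at 8.52, 5.17 and 5.84 CPM in KO at day 3, against 9.59, 10.0 and 9.71 CPM in control, and at 7.53 to 10.2 CPM in KO against 7.71 to 13.2 CPM in control at day 5. The groups were apart at day 3 and overlapped at day 5, where control replicate 4 was the lowest control. The lowest Sms value at day 3, 5.17 CPM in KO replicate 3, rests on 11 counts. The row alone was not called, at -0.49 ± 0.225 at day 3 (adjusted p = 0.0823) and -0.36 ± 0.181 at day 5 (adjusted p = 0.108). It was called without KO replicate 2 at day 3 (-0.80, adjusted p = 0.023) and without control replicate 4 at day 5 (-0.50, adjusted p = 0.0125). Sms-ps, a processed pseudogene with 100% identity over 1101 bases, held 3.17 times the counts of Sms. Summed, the pair averaged 27.9 ± 6.61 CPM in KO and 40.9 ± 1.66 CPM in control at day 3, and 33.9 ± 5.15 CPM in KO and 49.3 ± 10.1 CPM in control at day 5. The sum was called lower at both days, at -0.50 ± 0.194 (adjusted p = 0.0441) and -0.54 ± 0.16 (adjusted p = 0.0122), with overlap at day 5 through KO replicate 1 and control replicate 4. Summing the copies was chosen after the data were seen. For the Sms row alone the difference with sex as a covariate was -0.33 at day 3 and -0.17 at day 5 (adjusted p = 0.238 and 0.491).

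**Figure D2:**
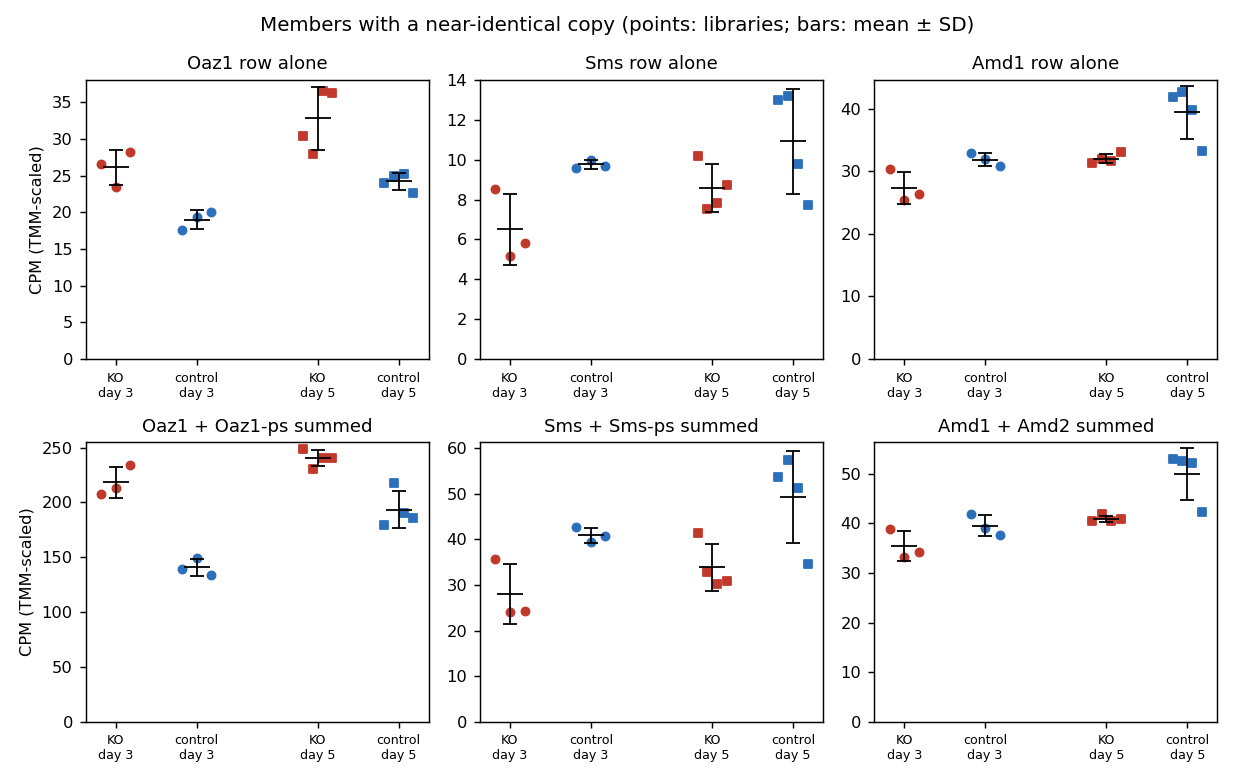
CPM of Oaz1, Sms and Amd1 from their own rows (upper panels) and summed with Oaz1-ps, Sms-ps and Amd2 (lower panels), KO left of control at each day; points are libraries and bars the mean ± SD. Summing raises the level several-fold for Oaz1 and Sms and leaves Oaz1 higher and Sms lower on average in KO.

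Sat1, also on the X chromosome, encodes spermidine/spermine N1-acetyltransferase, the inducible enzyme of polyamine breakdown and export. Sat1 stood at 46.1, 56.8 and 62.3 CPM in KO at day 3, against 127, 175 and 147 CPM in control. At day 5 it stood at 48.4, 40.0, 47.6 and 47.4 CPM in KO, against 64.6, 73.7, 58.5 and 73.4 CPM in control. The day 3 controls stood far above all other libraries, and KO was below control without overlap at both days. KO cells held 36.8% of the control mean at day 3 and 67.9% at day 5. The log2 fold change of Sat1 was -1.45 ± 0.139 at day 3 (adjusted p = 2.07e-06) and -0.56 ± 0.116 at day 5 (adjusted p = 0.00108). With sex as a covariate it was -1.62 and -0.70 (adjusted p = 5.44e-07 and 0.000114). The female KO libraries, which come from 1 embryo, stood at 46.1 CPM at day 3 and 40.0 CPM at day 5 and lay below every female control library of their day.

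Within a library, the ratio of Odc1 to Sat1 does not depend on the scaling between libraries. On CPM per kilobase it was 1.17, 0.623 and 0.701 in KO at day 3, against 0.396, 0.195 and 0.242 in control. At day 5 it was 0.907 to 1.08 in KO, against 0.422 to 0.785 in control. The KO libraries were above the control libraries at both days. The ratio of Odc1 to Azin1 overlapped between KO and control at both days, at 0.824 to 1.17 against 1.06 to 1.25 at day 3 and 0.971 to 1.19 against 0.872 to 1.33 at day 5. That of Odc1 to the Oaz1 row was 1.45 to 1.95 in KO and 1.7 to 2.75 in control at day 3, and 1.24 to 1.49 in KO and 1.32 to 2.03 in control at day 5.

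Cad encodes the protein that carries out the first steps of pyrimidine synthesis (carbamoyl phosphate synthetase, aspartate transcarbamylase and dihydroorotase). Cad stood at 71.4, 54.9 and 57.3 CPM in KO at day 3, against 119, 105 and 104 CPM in control. Day 5 levels were 67.6, 74.9, 61.9 and 57.6 CPM in KO, against 149, 158, 134 and 117 CPM in control. The groups did not overlap at either day, and KO cells held 56% of the control mean at day 3 and 47% at day 5. The log2 fold change of Cad was -0.82 ± 0.13 at day 3 (adjusted p = 0.000146) and -1.09 ± 0.11 at day 5 (adjusted p = 2.64e-06). With sex as a covariate it was -0.63 and -0.93 (adjusted p = 0.000102 and 7.29e-07). At day 5, control replicate 4, the library with cartilage markers in the KO range, was the control lowest in Cad, Srm, Amd1 and Umps. It was also the lowest control in Odc1, Sms, Dhodh, Oaz1 and Azin1, but not in Sat1. In Oaz1 (22.6 CPM), Azin1 (160.0 CPM), Odc1 (70.7 CPM) and Dhodh (10.3 CPM) it was thereby the control farthest from the KO mean. Without that library the day 5 differences were -1.17 for Cad, -1.21 for Srm and -0.38 for Amd1, all called.

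Dhodh and Umps encode the later enzymes of the same route, dihydroorotate dehydrogenase and UMP synthase, and neither was called in KO against control at either day. Dhodh averaged 13.3 ± 0.919 CPM in KO and 14.3 ± 1.93 CPM in control at day 3, and 13.4 ± 0.638 CPM in KO and 11.9 ± 1.29 CPM in control at day 5. Its difference was -0.09 (interval of 2 SE -0.35 to 0.17, adjusted p = 0.602) at day 3 and 0.16 (-0.06 to 0.37, adjusted p = 0.228) at day 5. Umps stood at 37.3, 31 and 34.4 CPM in KO and at 33.6, 30.2 and 30.2 CPM in control at day 3. At day 5 Umps stood at 41.5, 43.3, 47.5 and 50.5 CPM in KO, against 54.2, 53.9, 49.7 and 46 CPM in control. The groups overlapped at both days, and the difference was 0.15 (-0.05 to 0.36, adjusted p = 0.219) at day 3 and -0.16 (-0.32 to 0.01, adjusted p = 0.118) at day 5. Without control day 5 replicate 4 the day 5 difference was called (-0.21, adjusted p = 0.0393).

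**Figure D3:**
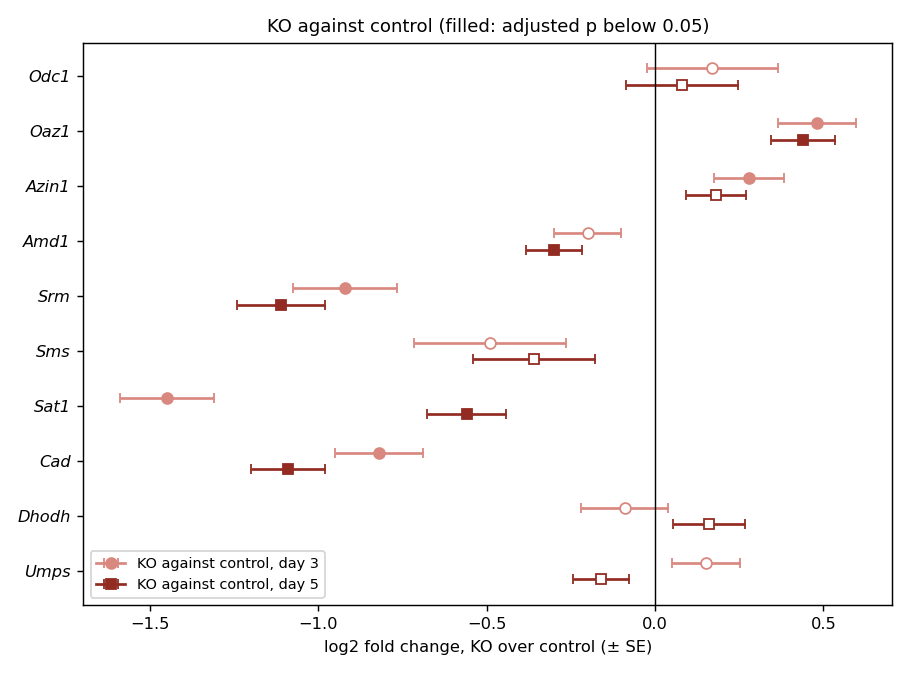
Log2 fold change of KO over control with its SE for each of the 10 genes, day 3 (light circles) above day 5 (dark squares); filled symbols have an adjusted p below 0.05. Srm and Cad lie near -1 at both days, Sat1 is lower at day 3 than at day 5 and Oaz1 lies to the right of 0. Odc1, Sms, Dhodh and Umps have open symbols at both days, as have Amd1 at day 3 and Azin1 at day 5.

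Promoters were compared between Cad and Sat1, which fell, and Odc1, which was not called. RefSeq windows (GRCm38.p6) matched 7 of the 10 genes, and the 250 bases before the annotated start are shown, with capitals for GGGCGG on either strand, the GC box bound by Sp1 family factors. In Cad and Odc1 another annotated start lies further upstream, so 160 and 65 of these bases are inside the gene's record. Cad lies at chr5:31054530-31054779 and Odc1 at chr12:17544623-17544872, both on the plus strand, and Sat1 at chrX:155216450-155216699 on the minus strand.
Cad: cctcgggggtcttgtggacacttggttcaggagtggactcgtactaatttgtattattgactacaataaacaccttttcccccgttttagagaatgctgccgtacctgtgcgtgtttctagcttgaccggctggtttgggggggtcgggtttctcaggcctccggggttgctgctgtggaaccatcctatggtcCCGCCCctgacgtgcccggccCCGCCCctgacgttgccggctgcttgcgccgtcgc
Odc1: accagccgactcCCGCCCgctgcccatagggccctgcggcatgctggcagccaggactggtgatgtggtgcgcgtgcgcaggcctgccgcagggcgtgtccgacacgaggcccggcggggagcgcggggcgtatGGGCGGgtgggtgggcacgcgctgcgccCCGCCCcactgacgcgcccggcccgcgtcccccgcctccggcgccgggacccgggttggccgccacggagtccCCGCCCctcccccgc
Sat1: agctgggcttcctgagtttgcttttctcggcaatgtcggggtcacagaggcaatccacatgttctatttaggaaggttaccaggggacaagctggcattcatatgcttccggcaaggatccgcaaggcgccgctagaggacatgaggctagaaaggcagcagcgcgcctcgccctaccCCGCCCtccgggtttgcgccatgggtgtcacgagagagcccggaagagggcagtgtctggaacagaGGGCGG
These windows held 2, 4 and 2 GC boxes, with overlapping matches counted. A GC box was present in 6 of the 7 matched genes, against 63.8% of 10994 tested genes with a window. The E-box CACGTG, the core motif bound by Myc and Max, was absent from the windows of Cad, Odc1 and Sat1. It was found in 1 of 7 genes, Sms, starting 196 bases before the upstream one of its 2 starts, against 9.75% of tested genes. A match in letters is not a bound site, and these windows leave out all bases after the start, introns included, and distal sequence.

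The difference between the KO effects at both days was tested directly. It was called for Sat1 alone, 1 of 10 members against 14.3% of all tested genes (7.16% positive and 7.15% negative), with the effect at day 5 minus that at day 3 at 0.89 ± 0.18 (adjusted p = 0.00518). For Srm the difference was -0.19 (interval of 2 SE -0.59 to 0.21, adjusted p = 0.576) and for Cad -0.27 (-0.61 to 0.06, adjusted p = 0.302). Umps came nearest among the others, at -0.31 ± 0.13 (adjusted p = 0.125), and was called without control day 5 replicate 4 (-0.37, adjusted p = 0.05). By edgeR no member had a called negative difference, while 1 had an unadjusted p below 0.05 and DESeq2 called 0.

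Day 5 against day 3 was compared within each genotype, where several embryos gave a library at both days. In control cells Sat1 was lower and Umps, Amd1, Oaz1 and Cad were higher at day 5, 5 of 10 members against 38.3% of all tested genes (18.3% higher and 19.9% lower). Libraries of the days did not overlap for 4 members (3 higher and 1 lower), against 42.7% (20.3% higher and 22.4% lower). Sat1 averaged 67.6 ± 7.36 CPM at day 5 (n = 4) and 149.7 ± 24.3 CPM at day 3 (n = 3), a log2 difference of -1.14 ± 0.123 (adjusted p = 7.11e-06). Umps averaged 51 ± 3.86 CPM at day 5 and 31.3 ± 1.92 CPM at day 3, higher by 0.70 ± 0.0927 (adjusted p = 4.11e-05). Amd1 was higher by 0.31 (adjusted p = 0.0149), Oaz1 by 0.35 (adjusted p = 0.0195) and Cad by 0.35 (adjusted p = 0.0292). The Oaz1 call was lost with the embryo as a block (adjusted p = 0.0655), with both libraries of one embryo summed (0.0544) and without control day 3 replicate 1 (0.0765), while the sum of Oaz1 and Oaz1-ps was higher by 0.46 (adjusted p = 0.000316). The Cad call was lost with those libraries summed (adjusted p = 0.0501) and in 4 of 7 fits without 1 library: without control day 3 replicate 2 (0.0946) or 3 (0.103), or control day 5 replicate 1 (0.07) or 2 (0.0829). Without control day 3 replicate 3 the Amd1 call was lost (adjusted p = 0.0594) and Dhodh was called lower (-0.36, adjusted p = 0.0429).

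In KO cells the change with time was called for Umps alone, 1 of 10 members against 12.0% of all tested genes (4.98% higher and 7.06% lower). No member was called lower, with 0 at an unadjusted p below 0.05 and 0 by DESeq2. Libraries of the days did not overlap for 2 members, Umps and Amd1, against 26.9% of all tested genes. Amd1 stood at 31.4 to 33.1 CPM at day 5 and 25.4 to 30.3 CPM at day 3, a log2 difference of 0.21 (adjusted p = 0.174). Umps averaged 45.7 ± 4.07 CPM at day 5 and 34.3 ± 3.18 CPM at day 3, higher by 0.39 ± 0.0934 (adjusted p = 0.0135). That call was lost without KO day 3 replicate 4 (adjusted p = 0.0583), and Oaz1 was called higher without KO day 5 replicate 2 (0.37, adjusted p = 0.0355). Sat1 averaged 45.9 ± 3.93 CPM at day 5 and 55.1 ± 8.24 CPM at day 3, a difference of -0.25 ± 0.129 (adjusted p = 0.237). Srm and Cad differed between days in KO by 0.01 and 0.08 (adjusted p = 0.975 and 0.761).

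Levels can be compared between genes per kilobase of counted length. In KO at day 5, Sat1 (41.1 CPM per kilobase), Odc1 (41), Srm (39.1) and Azin1 (38.4) lay together with overlapping libraries, followed by Umps (14.2), Cad (9.22) and Dhodh (5.77). In control at day 5 the order was Srm (84.3), Sat1 (60.5), Odc1 (38.9), Azin1 (33.9), Cad (19.6), Umps (15.8) and Dhodh (5.14). There Srm (66.8 to 95.6) lay above Sat1 (52.4 to 66) and Sat1 above Odc1 (27.8 to 45.4) in all libraries, while Odc1 and Azin1 (31.8 to 36.3) overlapped, as did Cad (16.4 to 22.2) and Umps (14.3 to 16.8). At day 3 Sat1 had the highest mean in both genotypes, at 49.4 CPM per kilobase in KO and 134 in control, and Dhodh the lowest, at 5.72 in KO and 6.17 in control. In KO at day 3 the libraries of Sat1 (41.3 to 55.8), Odc1 (31.7 to 48.4), Azin1 (33.4 to 41.4) and Srm (28.6 to 47.7) overlapped. Oaz1, Sms and Amd1 were left out of this order because of their summed copies. Odc1, Sat1 and Srm also have copies, of lower identity. Among them are Gm9115 for Odc1 (96.7% over 1349 bases) and Gm5552 for Sat1 (96.7% over 515 bases). How reads that match several places were counted is not known, so the levels of these genes and the Odc1 ratios carry that limit.

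By Pearson correlation of log2 CPM over the 14 libraries, which share genotype and day, the profiles most like that of Cad among 10645 genes were Kpnb1 (0.986), Carm1 (0.986) and Nadk (0.981). For Sat1 they were Zfas1 (0.985), Mfsd11 (0.975) and Htatip2 (0.973), and for Odc1 Trap1 (0.839), Cox10 (0.81) and Anxa2 (0.809). These are descriptions of likeness only.

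The counts of called genes in the following lists are to be read against all tested genes, of which 24.6% rose and 26.2% fell at day 3, and 26.3% rose and 26.2% fell at day 5. Other genes of the polyamine route were mixed: 4 of 13 tested rose and 2 fell at day 3, and 4 rose and 1 fell at day 5 (of 18 listed), near those shares for genes that rose. Oaz2, the second antizyme, averaged 58.7 ± 7.67 CPM in KO and 33 ± 5.1 CPM in control at day 3 and rose by 0.83 on the log2 scale (adjusted p = 0.000136), and by 0.59 at day 5 (adjusted p = 0.000442). Azin2, the second antizyme inhibitor, rose by 0.66 at day 3 (adjusted p = 0.000418) but stood at -0.07 at day 5 (adjusted p = 0.588), and these effects differed by -0.73 (adjusted p = 0.00708). Smox, spermine oxidase, averaged 16.6 ± 0.575 CPM in KO and 10.8 ± 1.38 CPM in control at day 5 and rose by 0.64 (adjusted p = 0.000121). At day 3 Smox stood at -0.11 (adjusted p = 0.451), and the effects differed by 0.75 (adjusted p = 0.00609). Sat2, a relative of Sat1 that acts mainly on thialysine, rose by 1.56 at day 3 and by 1.50 at day 5 (adjusted p = 0.000518 and 7.73e-05). Slc3a2, the heavy chain of amino acid transporters linked to polyamine export, averaged 182 ± 8.65 CPM in KO and 401 ± 40.0 CPM in control at day 3, a log2 fold change of -1.14 (adjusted p = 3.59e-07). At day 5 the Slc3a2 value was -0.15 (adjusted p = 0.113), and the effects differed by 0.99 (adjusted p = 0.000163). Gatm fell at both days, at -1.23 and -1.33 (adjusted p = 0.00786 and 0.000808), with low control means of 4.22 and 5.45 CPM.

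Hypusine is made from spermidine on the translation factor eIF5A. Of the 4 genes of that step, 3 fell and 0 rose at both days (26.2% of all tested genes fell at each day), with 0 rising also at an unadjusted p below 0.05 and by DESeq2. Eif5a, the protein that carries hypusine, averaged 269 ± 57.3 CPM in KO and 483 ± 16.7 CPM in control at day 3, and 282 ± 3.93 CPM in KO and 617 ± 89.9 CPM in control at day 5. It fell at both days, with log2 fold changes of -0.84 and -1.13 (adjusted p = 0.000214 and 4.21e-06). Dhps, deoxyhypusine synthase, fell to 47.2% of the control mean at day 3 and 67.8% at day 5 (adjusted p = 6.14e-05 and 0.00152). Dohh, the hydroxylase of the last step, fell, at -0.29 at day 3 (adjusted p = 0.0168) and -0.52 at day 5 (adjusted p = 6.78e-05). The Dohh call at day 3 was lost without KO replicate 4 (0.0974) or control replicate 2 (0.0838) and in a fit of the day 3 libraries alone (0.0937).

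The methionine cycle and salvage list supplies S-adenosylmethionine and recycles the methylthioadenosine left by the synthases. Of its 13 tested genes (14 listed), 4 rose and 6 fell at day 3, and 1 rose and 6 fell at day 5, against 24.6% and 26.2% of all tested genes at day 3 and 26.3% and 26.2% at day 5. Got1, the cytosolic aspartate aminotransferase, averaged 42.3 ± 5.65 CPM in KO and 131 ± 16.2 CPM in control at day 3. Got1 fell, at -1.64 on the log2 scale at day 3 (adjusted p = 5.85e-07) and -0.73 at day 5 (adjusted p = 0.00012). The salvage genes Adi1 and Mri1 fell to 56.7% and 50.3% of the control mean at day 3 (adjusted p = 9.76e-06 and 5.17e-05), and Mtap and Enoph1 to 75.9% and 69.3% at day 5 (adjusted p = 0.000429 and 0.000517). On the other day Adi1 and Mri1 were also lower (-0.34 and -0.53 at day 5, adjusted p = 0.00232 and 0.00129), as was Enoph1 (-0.32 at day 3, adjusted p = 0.0418). Mtap stood at 0.18 at day 3 (adjusted p = 0.0971), and its effects differed by -0.58 (adjusted p = 0.00444). Mtr, methionine synthase, rose by 0.53 at day 3 and 0.41 at day 5 (adjusted p = 0.000458 and 0.000888).

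Of 36 tested genes of later pyrimidine steps, salvage and breakdown (39 listed), 7 rose and 11 fell at day 3, near the 24.6% and 26.2% of all tested genes, and 3 rose and 15 fell at day 5, against 26.3% and 26.2%. Uckl1, of the uridine-cytidine kinase family, averaged 17 ± 0.982 CPM in KO and 33.2 ± 0.836 CPM in control at day 3. It fell, at -0.95 at day 3 and -0.81 at day 5 (adjusted p = 6.46e-07 and 4.12e-07). The nucleotidase Nt5c fell too, at -0.63 and -0.66 (adjusted p = 0.000166 and 1.75e-05). Dpyd, the first enzyme of pyrimidine breakdown, averaged 5.97 ± 0.669 CPM in KO and 1.44 ± 0.589 CPM in control at day 3 and rose by 2.03 (adjusted p = 0.000842), and by 1.69 at day 5 (adjusted p = 0.000646). Samhd1, which degrades deoxynucleotides, rose by 1.20 at day 3 (adjusted p = 0.000143) and stood at 0.01 at day 5 (adjusted p = 0.967), a difference between effects of -1.19 (adjusted p = 0.00572). Rrm2 had the smallest adjusted p among the genes of this list that rose at day 3, at 1.29 (adjusted p = 5.22e-05). It stood at 0.02 at day 5 (adjusted p = 0.916), and its effects differed by -1.27 (adjusted p = 0.00261).

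The purine list was set beside it as the parallel nucleotide route. Of its 18 genes, 2 rose and 6 fell at day 3 (24.6% and 26.2% of all tested genes), and 1 rose and 11 fell at day 5 (26.3% and 26.2%), with medians of -0.24 and -0.31 against -0.0036 and 0.0211 over all tested genes. Aprt, which salvages adenine, including that released by polyamine synthesis, averaged 31.2 ± 9.21 CPM in KO and 84.8 ± 8.36 CPM in control at day 3, and 27 ± 0.223 CPM in KO and 82.8 ± 11 CPM in control at day 5. It fell at both days, with log2 fold changes of -1.36 and -1.62 (adjusted p = 1.05e-05 and 5.01e-07). The synthesis genes Impdh1 and Gart fell at day 5, at -0.81 and -0.61 (adjusted p = 1.27e-06 and 0.000256), and stood at -0.33 and -0.25 at day 3 (adjusted p = 0.00659 and 0.103). Prps2, which makes phosphoribosyl pyrophosphate, rose by 0.44 at day 3 and 0.35 at day 5 (adjusted p = 0.00367 and 0.00427).

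**Figure D4:**
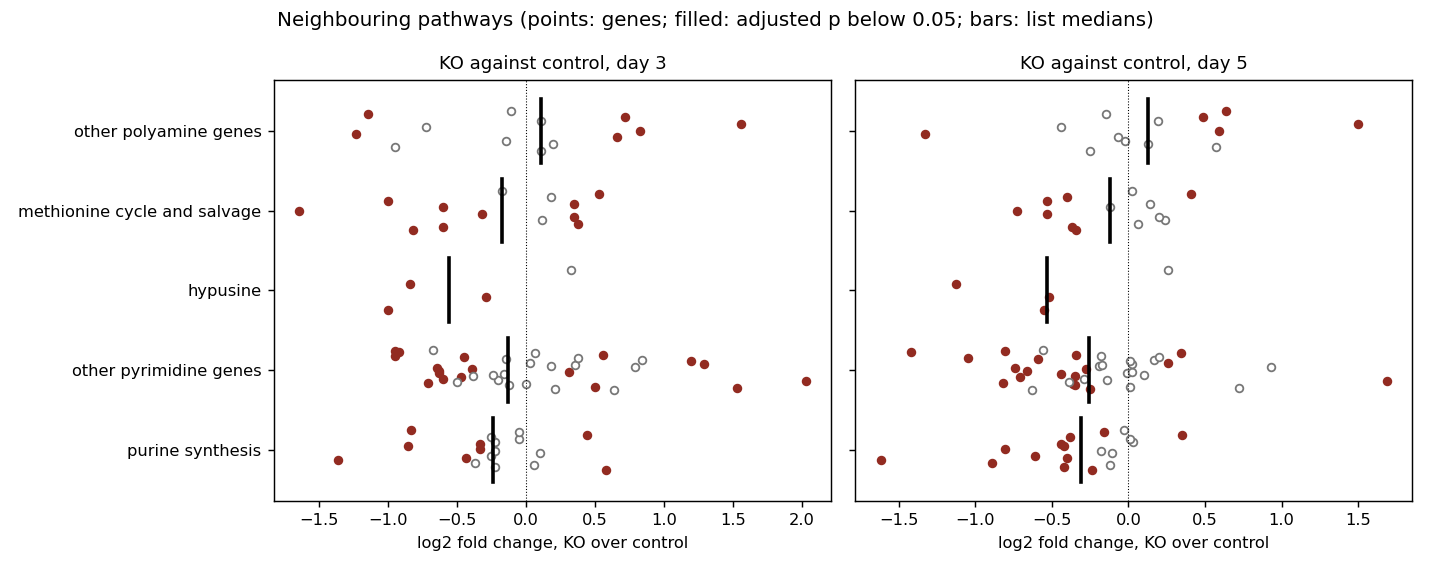
Log2 fold change of KO over control at day 3 (left) and day 5 (right) for the tested genes of the 5 neighbouring lists; each point is a gene, filled where its adjusted p is below 0.05, and black bars are list medians. Hypusine genes have 3 of 4 points filled on the left of 0, while the other polyamine genes spread to both sides.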

How the data were processed

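RNA was measured in 14 MEF libraries by stranded poly(A) RNA-seq with paired-end reads, per the labels' protocols. The authors assigned reads to mm10 genes with featureCounts, per the submitters' processing notes, and deposited raw counts per gene without normalization. No aligner, strand setting or version is given in the sources used here. Per the file headers, each file also holds a gene length, used here for values per kilobase.

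Of 27179 lines per file, 909 had no gene identifier (0.194% to 0.315% of counts) and were left out. Of 26270 identifiers, 25275 matched a RefSeq symbol. Xist, Tsix and Y chromosome genes (112) were kept out. One edgeR 4.0.16 quasi-likelihood model (R 4.3.3, limma 3.58.1) was fitted to all libraries with 1 mean per group, after filterByExpr and TMM scaling. The code was also run on simulated counts of independent libraries with a fixed spread. That run checks the code and not the calls in these data. Calls required an adjusted p below 0.05. CPM values use TMM-scaled totals. No 2 libraries of a group agreed within sampling noise (chi-square per degree of freedom 3.3 to 79.4).

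The members and lists were chosen with earlier results of these data known. From each other list at most 3 called genes per direction and contrast, by smallest adjusted p, qualified for naming, and not all are printed. The genes most like Cad, Odc1 and Sat1 come from those with at least 5 CPM on average (log2 CPM with a prior count of 2).

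Alternatives were DESeq2 1.42.0, its size factors in edgeR, no filter, fewer libraries, sex, replicate or embryo blocks, summed libraries of one embryo, summed near-identical copies and leaving out each library. Libraries of the same embryo at both days count as pairs by their labels. The correlations of their deviations from group means were -0.0166, -0.0229 and 0.204 among KO pairs, and 0.02, 0.0767 and -0.0228 among control pairs. Copies were found by aligning the longest coding transcript of each member to GENCODE M21 transcripts, and those with at least 99% identity over 500 bases and a row in the files were summed.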

Additional observations from a re-analysis of the deposited data

Results flagged for a closer look

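Sat1 was flagged by 2 rules. The KO effect on Sat1 differed between the days, by 0.89 on the log2 scale (day 5 minus day 3, edgeR's adjusted p = 0.00518), and it stayed called under all 21 alternatives (0.76 to 1.01, adjusted p = 0.000318 to 0.0164). In KO at day 5 the lowest Sat1 library, replicate 2 at 40.0 CPM, stood apart from the other 3 at 47.4 to 48.4 CPM. Replicate 2 is the one female library of that group, and Sat1 is X-linked; the part of sex in this value was not tested. The critical value of the rule is set so that chance flags about 1 in 20 groups. It was applied to all 10 members in KO and control at day 5, the groups with 4 libraries, and flagged this value alone. A single flag is near that rate.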

How the results depend on the processing

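Of 50 results (10 genes in 5 contrasts) under 765 alternative values, 715 kept their direction and side of the threshold, 14 lost a call, 12 gained one and 24 changed sign. No called change reversed. The KO against control values of Srm, Cad, Sat1 and Oaz1 stayed called under every alternative at both days (Srm -1.15 to -0.74 and -1.21 to -0.94, Cad -0.96 to -0.63 and -1.17 to -0.93). Leaving out 1 library gave 4 to 6 members called at day 3 and 5 to 7 at day 5.

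For the difference between the KO effects, 1275 to 2750 genes (2051 with all libraries) and 1 to 2 members were called, the lowest count of genes without control day 3 replicate 3 and the second member, Umps, without control day 5 replicate 4. For day 5 against day 3 in KO, 1024 to 1605 genes (1725 with all libraries) and 0 to 2 members (Umps lost without KO day 3 replicate 4, Oaz1 gained without KO day 5 replicate 2) were called, with 1024 genes without KO day 3 replicate 4, 1104 without KO day 5 replicate 3 and 1107 without KO day 5 replicate 4. In control, 3 members were called with the libraries of one embryo summed.

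With a replicate block by number, 2 members had a called difference between the KO effects, the second being Cad at -0.36. Numbers are shared between genotypes without a stated link, correlations of same-numbered libraries were -0.0507 and -0.021 at day 3 and 0.23, 0.155, -0.166 and 0.428 at day 5, and 2 of 4 libraries of each genotype at day 5 correlated best with their own number. The embryo block changed no call of a member other than that of Oaz1 in control.

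Sign changes concerned values near 0 that were not called, and the cause was not tested. They were Dhodh at day 3 (0.00 with sex), Dhodh between days in KO (0.02 with sex, 0.03 with the embryo replicate block), Srm between days in KO (-0.00 with DESeq2 size factors) and the Sms difference between KO effects (-0.01 with the embryo replicate block, -0.03 with copies summed). Leaving out 1 library, ranges crossed 0 for the difference between KO effects of Odc1 (-0.29 to 0.07), Srm (-0.31 to 0.04), Sms (-0.04 to 0.44), Oaz1 (-0.09 to 0.02) and Kat5 (-0.13 to 0.00), between days in KO for Odc1 (-0.10 to 0.19), Srm (-0.11 to 0.24), Azin1 (-0.07 to 0.10) and Dhodh (-0.05 to 0.03), and in KO against control for Odc1 at day 5 (-0.06 to 0.16) and Dhodh at day 3 (-0.19 to 0.01).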
